A study of Mus musculus with 16 samples.

Results

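Interferon-stimulated genes are the genes that cells switch on after sensing a virus or other foreign nucleic acid, and 37 of them were followed in the liver of mouse offspring. They were chosen by name from textbook members of the response, with earlier results of these data known. Each gene was read from its brightest probe in the liver channel. All 37 had a probe on the array. Oas1g was well above background on 0 of 16 arrays, and the other 36 were tested among 18704 genes.

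The study asked whether inhalation of UV-Titan, a coated nano-sized titanium dioxide, by pregnant mice changed hepatic gene expression in their young. Dams of the strain C57BL/6BomTac breathed filtered air (controls) or UV-Titan at about 42 mg/m3, for 1 hour daily from gestation day 8 to 18, so every animal, control or exposed, came from a dam that had been through the inhalation procedure. The offspring were 3 control and 5 exposed females (female UV-Titan) and 4 control and 4 exposed males (male UV-Titan), with 1 two-colour array for each liver against a universal mouse reference RNA. Livers were collected on postnatal day 2 or on days 23 to 24, and the labels give neither the age of an animal nor its litter, so p-values measure the spread between these animals only and littermates cannot be told apart from unrelated animals.

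Interferons are secreted proteins that bind receptors on the same or neighbouring cells and act through JAK kinases. Type I and type III interferons assemble a complex with STAT2 and IRF9 that binds the interferon-stimulated response element (ISRE), whereas interferon gamma acts mainly through the gamma-activated site (GAS). The induced proteins block viral translation and assembly, degrade viral RNA, sense further RNA and load peptides for antigen presentation. Liver holds hepatocytes, Kupffer cells, endothelium and, around birth, blood-forming cells, all of which can respond. In whole-liver RNA, fewer cells of a type and less RNA per cell cannot be told apart.

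Most of the 36 genes varied together from animal to animal, and the spread of their mean was wider than its difference between exposed and control livers. Their mean per array had an SD between animals of 0.18 log2 within groups, against a UV-Titan minus control difference of 0.057 ± 0.089 log2 (SE, both sexes averaged). None of the 36 genes passed an adjusted p of 0.05 in any exposure comparison, and across all genes 0% passed as well.

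Sequences upstream of a selection of the members are shown, and most of these hold the letters to which the interferon-activated complex binds. Each line gives the 150 bases before a RefSeq transcript start (build GRCm38.p6), 5′ to 3′ on the strand of the gene, with matches to the core of the ISRE (GAAA, any 2 bases, then GAAA again) or to the GAS (TTCNNNGAA), on either strand and with overlaps allowed, in capitals. Isg15, Rsad2, Ifit1 and Ifit3 were among the 6 genes with the widest spread between animals, Gbp3 with Irgm1 and Bst2 with Oas1a were the closest pairs, Apol9b had the smallest p of the 36 genes, and Isg20 was least like the rest.
Isg15 (chr4:156200819-156200968, minus strand): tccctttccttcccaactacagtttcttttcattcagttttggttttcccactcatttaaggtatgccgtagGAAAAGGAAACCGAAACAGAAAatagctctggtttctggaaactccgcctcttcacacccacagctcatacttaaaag
Rsad2 (chr12:26456453-26456602, minus strand): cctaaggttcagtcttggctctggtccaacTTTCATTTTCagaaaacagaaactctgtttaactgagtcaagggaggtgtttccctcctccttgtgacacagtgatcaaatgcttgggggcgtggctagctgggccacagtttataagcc
Ifit1 (chr19:34640739-34640888, plus strand): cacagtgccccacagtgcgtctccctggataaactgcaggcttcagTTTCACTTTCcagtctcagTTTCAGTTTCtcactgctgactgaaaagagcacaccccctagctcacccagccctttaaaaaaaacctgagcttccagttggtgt
Ifit3 (chr19:34583379-34583528, plus strand): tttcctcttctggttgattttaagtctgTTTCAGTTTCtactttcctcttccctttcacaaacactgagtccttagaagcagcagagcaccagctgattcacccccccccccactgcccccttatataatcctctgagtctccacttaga
Gbp3 (chr3:142559894-142560043, plus strand): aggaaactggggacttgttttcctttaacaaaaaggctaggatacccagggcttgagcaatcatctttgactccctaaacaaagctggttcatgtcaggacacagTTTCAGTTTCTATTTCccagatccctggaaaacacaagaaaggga
Irgm1 (chr11:48871421-48871570, minus strand): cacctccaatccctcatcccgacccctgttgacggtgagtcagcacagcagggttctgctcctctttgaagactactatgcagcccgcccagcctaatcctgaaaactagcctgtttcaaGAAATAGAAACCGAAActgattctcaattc
Bst2 (chr8:71537473-71537622, minus strand): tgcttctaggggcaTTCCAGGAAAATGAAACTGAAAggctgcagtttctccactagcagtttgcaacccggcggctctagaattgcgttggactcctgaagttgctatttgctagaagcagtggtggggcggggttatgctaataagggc
Oas1a (chr5:120907526-120907675, minus strand): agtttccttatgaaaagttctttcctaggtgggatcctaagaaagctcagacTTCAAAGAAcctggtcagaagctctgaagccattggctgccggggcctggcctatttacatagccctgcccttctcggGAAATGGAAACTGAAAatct
Apol9b (chr15:77728922-77729071, plus strand): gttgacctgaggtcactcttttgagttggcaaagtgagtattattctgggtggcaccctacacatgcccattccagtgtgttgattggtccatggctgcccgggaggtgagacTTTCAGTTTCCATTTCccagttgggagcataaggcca
Isg20 (chr7:78913274-78913423, plus strand): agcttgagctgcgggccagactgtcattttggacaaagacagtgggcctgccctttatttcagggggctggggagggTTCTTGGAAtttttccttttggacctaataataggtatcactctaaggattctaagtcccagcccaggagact

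In these stretches Isg15 held 3 overlapping ISRE matches. Oas1a, Gbp3, Irgm1, Ifit1, Bst2 and Apol9b held 2 each, and Rsad2 and Ifit3 held 1. Isg20 held no ISRE match and 1 GAS match, and Bst2 and Oas1a held 1 GAS match each beside their ISRE matches. Over the longer window of 250 bases before to 50 after the start, 30 of the 37 genes had an entry, and 17 of these (56.7%) held an ISRE match against 3.99% of 27025 genes. A GAS match lay in 9 of the 30 (30.0%) against 9.55% of all genes. Mx1, Mx2, Dhx58, Zbp1, Usp18, Iigp1 and Oas2 had no entry. Not every gene close to the mean of the other members held an ISRE match. Irf9, Oasl2, Oasl1, Irf7 and Tap1 (r of 0.84 to 0.89 with that mean) held none in this window. Oas1a, Irgm1 and Gbp3 (0.90 to 0.91) did. A match describes the letters only.

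Red was read as liver because hepatocyte genes, at the median, had log2 red minus log2 green of 4.68 to 5.74 on the 16 arrays. Cy5, the red dye, is the liver dye by the labelling protocol but not by the dye fields of the labels. Red was well above background at 57.7% to 67.1% of the spots of an array. Male control replicates 31 and 33 stood apart: the mean of 9 tested exocrine pancreas genes, as log2 ratio minus each gene's mean, was 2.27 and 1.39 there and -0.45 to -0.09 on the other 14 arrays. Male UV-Titan replicate 5 had 9 skeletal muscle genes at 2.45, where the other arrays lay between -0.39 and 0.40. The main male results are therefore also given without replicates 31 and 33.

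The ranking of the 16 animals by the mean of the 36 genes, as log2 ratio minus each gene's mean over all arrays, mixed the exposure groups. Male control replicate 43 was highest at 0.24. Female UV-Titan replicate 21 followed at 0.21 and male UV-Titan replicate 17 at 0.18. Female UV-Titan replicate 16 was lowest at -0.29 and male control replicate 31 next at -0.29, followed by male control replicate 33 at -0.18 and female UV-Titan replicate 10 at -0.14. Both ends of the ranking thus held exposed and control animals.

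By group, the mean was -0.028 ± 0.052 (SD, n = 3) in female controls and -0.019 ± 0.20 (SD, n = 5) in female UV-Titan. It was -0.030 ± 0.24 (SD, n = 4) in male controls and 0.075 ± 0.093 (SD, n = 4) in male UV-Titan. The 4 groups overlapped, and group membership accounted for 7.59% of the variance of the 16 values. The exposure difference was 0.0089 ± 0.13 log2 (SE) in females and 0.11 ± 0.12 log2 (SE) in males. The spread between animals was 3.08 times the difference averaged over sexes, and 7.72 times in quantile-normalized red. Without male controls 31 and 33 the male difference was -0.099 ± 0.12 log2 (SE) and the difference averaged over sexes -0.045 ± 0.080.

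The liver channel carried the spread. In red alone, quantile-normalized between arrays, the mean over the 36 genes had an SD between animals of 0.20 log2, and in the green reference channel 0.041 log2. Red varied more than green for 36 of 36 genes. Each gene's ratio tracked its own red signal with a median r of 0.90 (lowest 0.52, Oasl1) over 16 arrays with group means removed.

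**Figure D1:**
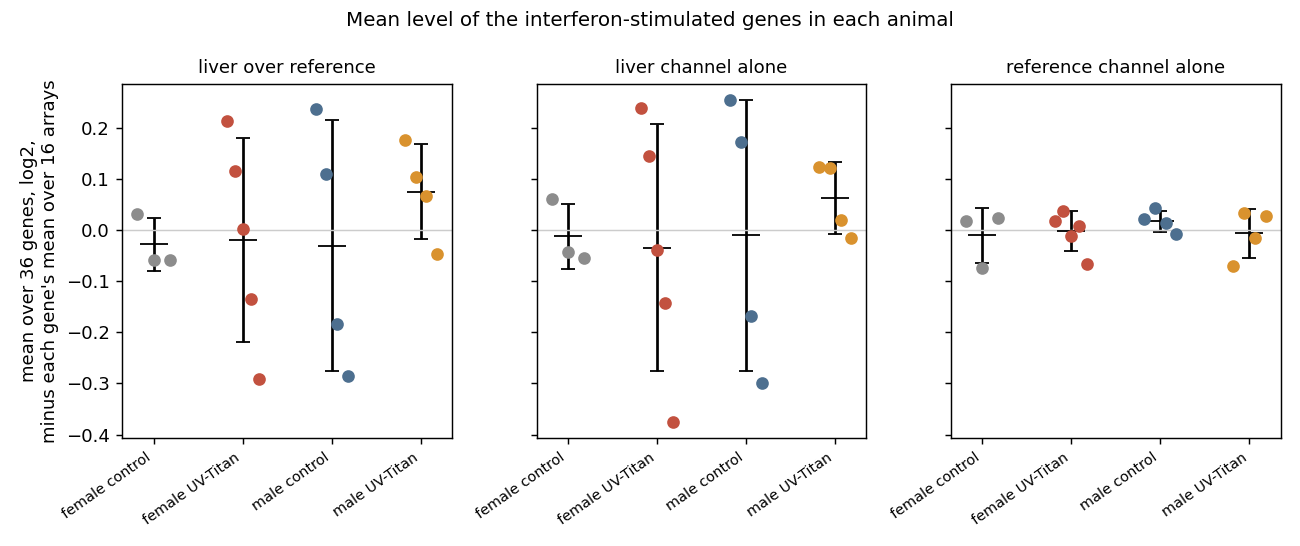
Mean over 36 interferon-stimulated genes on each array (points) with group mean and SD (bars), in log2 after removal of each gene's mean over 16 arrays, for the ratio, the liver channel and the reference channel. Female UV-Titan and male control animals span most of the range in the first 2 panels, and the reference channel lies between -0.073 and 0.042.

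Slides shared part of the pattern. The 3 arrays of slide 1, which held 1 exposed female, 1 control male and 1 exposed male, lay between 0.10 and 0.24, and the means of the other 4 slides lay between -0.096 and 0.030. Within slides the male difference was -0.13, 0.35 and -0.16 log2 on the 3 slides with both male groups, and the female difference -0.17, 0.17 and -0.23 log2 on the 3 slides with both female groups. The sign of the exposure difference thus turned between slides in both sexes. In males the positive value came from slide 3, whose only male control was replicate 31, and the other values were negative. With slide means removed as well as group means, the SD between animals was 0.17 log2.

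Among the antiviral effectors, Rsad2 (viperin, an enzyme that makes a chain-terminating nucleotide) ranged most widely. Its log2 ratio was 3.11, 2.48 and 2.75 in female controls 25, 35 and 40, and 3.34, 2.66, 2.43, 2.00 and 3.36 in female UV-Titan 2, 8, 10, 16 and 21. It was 2.27, 3.15, 3.63 and 2.95 in male controls 31, 33, 41 and 43, and 2.80, 3.14, 3.50 and 3.71 in male UV-Titan 3, 4, 5 and 17. The lowest and highest animals, female UV-Titan 16 and male UV-Titan 17, differed 3.28-fold, and the groups overlapped in both sexes. The differences were -0.02 ± 0.32 log2 (SE) in females and 0.29 ± 0.31 in males, and -0.0012 ± 0.35 in males without controls 31 and 33. Its SD between animals of 0.50 log2 was at the 99.4th percentile of all genes, and its 3 probes on chromosome 12 correlated with r of at least 0.86.

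Zbp1, a sensor of Z-form nucleic acid, was low in the 2 male controls with pancreas transcripts. Its log2 ratio was 0.42, 0.29 and 0.70 in female controls 25, 35 and 40, and 0.54, 0.64, 0.48, 0.45 and 0.86 in female UV-Titan 2, 8, 10, 16 and 21. In males it was -0.23, -0.25, 0.74 and 1.14 in controls 31, 33, 41 and 43, and 1.28, 0.65, 0.62 and 0.95 in UV-Titan 3, 4, 5 and 17. Controls 41 and 43 lay inside the range of the exposed males. The male difference was 0.53 ± 0.25 log2 (SE, adjusted p = 0.949), the largest among the 36 genes. It was -0.06 ± 0.18 log2 without controls 31 and 33.

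The IFIT proteins bind viral RNA that lacks host cap marks. Ifit1 spanned -0.33 to -0.03 among control females, -0.94 to 0.10 among exposed females, -0.91 to 0.06 among control males and -0.68 to -0.03 among exposed males. Ifit3, which stabilises the IFIT complex in human cells, was 0.75, 0.75 and 0.88 in female controls 25, 35 and 40, and 1.49, 1.03, 0.57, 0.40 and 1.38 in female UV-Titan 2, 8, 10, 16 and 21. The exposed females lay on both sides of the controls. Mouse Ifit3 has a near-identical copy, Ifit3b, and the probe may read both. In males Ifit3 was 0.65 to 1.27 in controls and 0.53 to 1.23 in UV-Titan.

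The myxovirus resistance GTPases Mx1 and Mx2 varied less, with SDs of 0.16 and 0.20 log2. Mx2 had the smallest female p of the 36 genes (0.26 ± 0.13 log2, SE, unadjusted p = 0.0643, adjusted p = 0.765), and its male difference was -0.10 ± 0.13. It spanned 0.55 to 1.14 in female controls and 0.90 to 1.24 in female UV-Titan, so the groups overlapped. Mx1 had -0.09 ± 0.11 log2 in females and -0.0033 ± 0.11 in males. The Mx1 probe was well above background on 16 arrays but dim, with a mean red signal of 139. The Oas1g probe, above background on 0 arrays, had 88. The part of the dim signal in the small spread of Mx1 was not tested. Bst2 (tetherin, which holds budding virions at the cell surface) was the brightest effector and spanned -0.66 to -0.15 over the 16 animals. Ifi44, a cytoplasmic interferon-induced protein, spanned -1.71 to -1.33 in female controls and -2.28 to -1.54 in female UV-Titan (-0.25 ± 0.16 log2, SE, adjusted p = 0.843).

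Apol9b, an apolipoprotein L gene induced by interferon, had the smallest male p of the 36 genes and was the 1 member whose male groups did not overlap, as 2.98% of all genes did not. Its log2 ratio was -1.12, -1.33, -0.98 and -0.83 in male controls 31, 33, 41 and 43, and -0.74, -0.72, -0.62 and -0.55 in male UV-Titan 3, 4, 5 and 17. All 4 exposed males lay above all 4 control males. In females it was -1.10, -0.93 and -0.88 in controls 25, 35 and 40, and -1.08, -0.87, -0.86, -0.82 and -0.98 in UV-Titan 2, 8, 10, 16 and 21, which overlapped. The male difference was 0.41 ± 0.09 log2 (SE, unadjusted p = 0.000529) and did not pass after adjustment over all genes in limma (adjusted p = 0.949). The female difference was 0.05 ± 0.10 log2.

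In the liver channel alone Apol9b was 10.52, 10.21, 10.68 and 10.65 log2 in male controls 31, 33, 41 and 43, and 10.76, 10.98, 10.83 and 10.85 in male UV-Titan 3, 4, 5 and 17. The male groups did not overlap in these quantile-normalized values either, with a difference of 0.33 log2. With red centred on the median of each array they overlapped, at 3.16 to 3.67 in controls and 3.56 to 3.87 in exposed males, and the difference was 0.29 ± 0.21 log2 (SE). Without male controls 31 and 33 the male difference of the ratio was 0.25 log2 (unadjusted p = 0.0191, adjusted p = 1.00). Apol9b lies beside a closely related copy, Apol9a, and its probe (chromosome 15, 77819270 to 77819329 in build mm7) is listed under the older name 2310016F22Rik, so signals of both genes may be mixed. It varied little with the other members (r of 0.27 with their mean).

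The remaining effectors were Isg20, described below, Ifit2, Eif2ak2 (the kinase PKR, which stops translation) and Ifi35 (a leucine-zipper protein). Of the 13 effectors, 8 were higher and 5 lower with UV-Titan in females, and 10 were higher and 3 lower in males. None of the 13 passed. The shares of all genes that were higher were 58.8% in females and 56.8% in males. The male count turned once the male controls that carried pancreas transcripts were left out. Only Mx1 (0.0097 log2), Isg20 (0.22) and Apol9b (0.25) were then higher in exposed males. The male differences of the other effectors were negative, from -0.18 (Ifit1) to -0.0012 log2 (Rsad2).

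Oligoadenylate synthetases make the second messenger that activates RNase L. Of the 5 tested, 1 was higher and 4 were lower in exposed females, and 5 of 5 were higher in exposed males, with medians of -0.093 and 0.11 log2. Oas1a, the brightest, spanned -0.29 to 0.04 among control females, -0.46 to 0.04 among exposed females, -0.48 to 0.08 among control males and -0.24 to -0.01 among exposed males. Oas3 had -0.13 ± 0.11 log2 (SE) in females and 0.20 ± 0.11 in males (unadjusted p = 0.248 and 0.0767). It was -0.55, -0.29, -0.02 and -0.19 in male controls 31, 33, 41 and 43, and -0.27, 0.02, -0.07 and 0.08 in male UV-Titan 3, 4, 5 and 17, which overlapped. Without controls 31 and 33 the male difference of Oas3 was 0.05 ± 0.11 log2 (SE). Those of the other synthetases tested were then negative (-0.22 to -0.05).

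Isg15, a ubiquitin-like protein that is attached to newly made viral and host proteins, had the widest spread of the 36 genes. Its log2 ratio was 0.40, 0.07 and 0.59 in female controls 25, 35 and 40, and 0.84, 0.11, -0.28, -0.43 and 1.10 in female UV-Titan 2, 8, 10, 16 and 21. It was -0.35, 0.22, 1.12 and 0.63 in male controls 31, 33, 41 and 43, and 0.31, 0.72, 0.79 and 1.03 in male UV-Titan 3, 4, 5 and 17. Exposed females held both the highest and the lowest female value. The differences were -0.08 ± 0.34 log2 (SE) in females and 0.31 ± 0.33 in males, or -0.16 ± 0.36 in males without controls 31 and 33. The SD between animals of 0.53 log2 was at the 99.5th percentile of all genes. The array file places the Isg15 probe on chromosome 17 (44534906 to 44534965, mm7), whereas RefSeq has the gene on chromosome 4. Its ratio had an r of 0.81 with the mean of the other members, and the placement was not tested further. Usp18, the protease that removes ISG15 and dampens the type I receptor, had an SD of 0.20 log2 and differences of 0.06 ± 0.14 in females and -0.10 ± 0.13 in males.

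The 3 cytoplasmic RNA sensors had a median r of 0.59 among themselves. Ddx58 (RIG-I) spanned 0.67 to 1.71 among control females, 1.01 to 1.65 among exposed females, 0.68 to 1.66 among control males and 0.93 to 1.47 among exposed males. Of its 3 probes above background on all arrays, the brightest had r = 0.69 with the next brightest and 0.19 with the dimmest, and these last had r = 0.50 with each other. Ifih1 (MDA5) spanned 1.67 to 2.27 over the 16 animals with differences of -0.09 ± 0.13 log2 (SE) in females and 0.07 ± 0.12 in males. Dhx58 (LGP2), a regulator of the other sensors, followed the mean of the members closely (r = 0.89).

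Of the transcription factors, Irf7, the amplifier of type I interferon, was lower by 0.21 ± 0.18 log2 (SE) in exposed females on a range of -0.45 to 0.05 in controls and -0.90 to 0.02 in UV-Titan. In males its difference was 0.01 ± 0.17. Irf1 was the brightest of these 4 genes and among the least variable members, at 0.16 to 0.61 over all animals, although its second, dimmer probe did not follow the first (r = 0.064). Irf9 followed the mean of the members (r = 0.89), and Stat2, its partner, less so (r = 0.41).

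Interferon-induced GTPases attack membranes around intracellular pathogens, and many of them respond to interferon gamma. Iigp1 was the brightest of all 36 genes, with a log2 ratio of 5.59 to 6.30 among control females, 5.90 to 6.74 among exposed females, 5.90 to 6.53 among control males and 5.69 to 6.37 among exposed males. Ifi47 had 0.28 ± 0.21 log2 (SE) in females and 0.29 ± 0.20 in males, on ranges of 2.58 to 3.02 among control females, 2.93 to 3.53 among exposed females, 2.38 to 3.60 among control males and 3.05 to 3.55 among exposed males. Without male controls 31 and 33 the male difference of Ifi47 was -0.09 ± 0.19 log2 (SE). Of the 6 GTPases, 5 were higher in exposed females and 6 in exposed males, and none passed. Among all genes 58.8% were higher in exposed females and 56.8% in exposed males. With controls 31 and 33 left out, the male differences of the 6 GTPases were all negative, from -0.25 (Igtp) to -0.03 log2 (Gbp2). Igtp, named after its values were seen, was lowest in male control 33 and highest in male control 43, a 2.16-fold range inside 1 control group.

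The antigen processing genes Tap1 (peptide transporter), Psmb8 and Psmb9 (immunoproteasome subunits) varied together, with a median r of 0.83 among their 3 pairs. Psmb8 was -0.61 in female control 35 and between -0.26 and 0.25 on the other 15 arrays, and its 2 probes tracked each other (r = 0.99). The exposure differences of Psmb8 were 0.11 ± 0.14 log2 (SE) in females and 0.15 ± 0.14 in males.

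**Figure D2:**
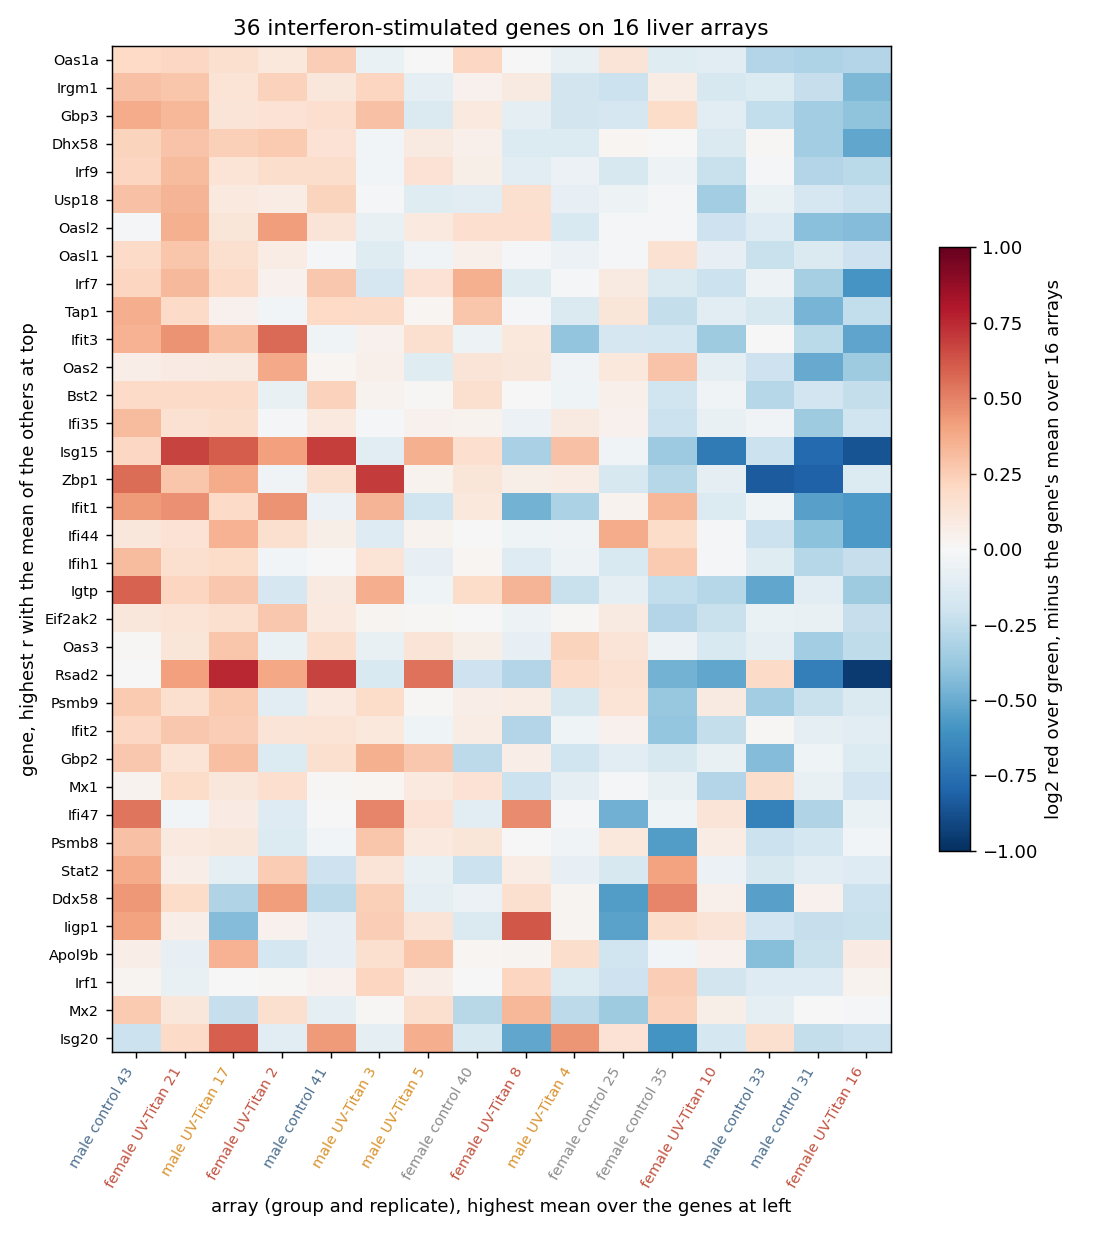
Log2 red over green of 36 interferon-stimulated genes (rows) on 16 arrays (columns), minus each gene's mean over the arrays. Columns run from the animal with the highest mean to the lowest and rows from the gene closest to the mean of the others (Oas1a) to the least close (Isg20), so that colour changes from left to right in most rows.

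Counted over the whole list, the exposure differences were small. In females 20 of the 36 genes were higher and 16 lower with a median of 0.0096 log2, beside 0.021 log2 over all genes. At an unadjusted p below 0.05 there were 0 of 36 in females, where 6.75% of all genes fell below it. In males 31 were higher and 5 lower with a median of 0.063 log2, beside 0.016 over all genes, and 1 of 36 (Apol9b) fell below 0.05, against 4.96% of all genes. Averaged over sexes 25 were higher with a median of 0.035 log2, beside 0.019, and again only Apol9b fell below 0.05, against 7.07%.

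The count of higher members in males rested on the 2 male controls that carried pancreas transcripts. Without replicates 31 and 33 the male median was -0.11 log2, with 5 of 36 genes higher, beside an all-gene median of 0.017. Without replicate 31 alone it was 0.0022 log2, without 33 alone 0.031, and without control replicate 43, the highest animal of all, 0.17. The part of the pancreas transcripts in the low values of 31 and 33 was not tested.

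Sex comparisons gave no adjusted call among the members either. The female minus male exposure effect fell below an unadjusted p of 0.05 for 2 of 36 genes, Apol9b (-0.36 ± 0.14 log2, SE, adjusted p = 0.979) and Oas3 (-0.33 ± 0.15, adjusted p = 0.979), where 4.31% of all genes did. Without male controls 31 and 33 these were -0.20 ± 0.12 and -0.18 ± 0.15 log2, and 0 of 36 members fell below 0.05, against 2.05% of all genes. Between males and females 0.0481% of all genes passed the adjusted threshold, none of them members, and 1 of 36 members (Isg20) fell below an unadjusted 0.05, against 4.29%.

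Against their own spread the differences were modest. For 1 of 36 members (Apol9b) the difference averaged over sexes exceeded the SD between animals, against 9.72% of all genes. UV-Titan and control arrays did not overlap for 0 members in females, against 4.23% of all genes, and for 1 member in males, against 2.98%. All 36 had an SD above the all-gene median of 0.13 log2, their own median was 0.22 log2, and 17 lay at or above the 90th percentile of all genes.

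**Figure D3:**
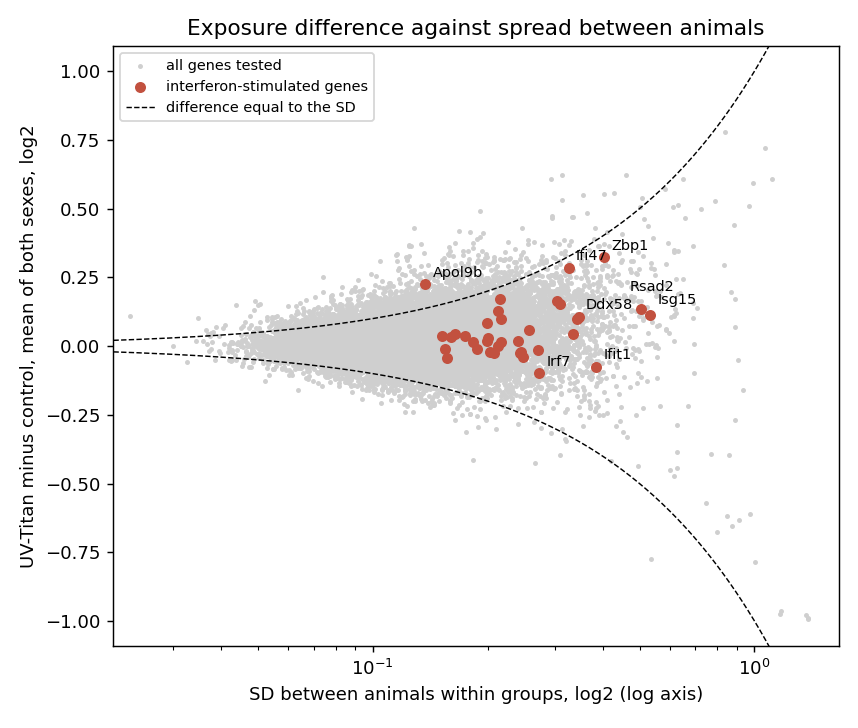
UV-Titan minus control difference averaged over sexes (log2) against the SD between animals within groups (log2, log axis) for all 18704 genes (grey) and 36 interferon-stimulated genes (red). The dashed lines mark a difference equal to the SD, and of the red points only Apol9b lies beyond them.

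How closely the genes varied together was measured as Pearson's r over 16 arrays after removal of group means, a description in which all points share their arrays and slides. Over the 630 pairs of members the median r was 0.52, 51.6% of pairs exceeded 0.5 and 10.5% were below 0. Over all pairs of the genes tested the median was 0.012 and 7.61% exceeded 0.5. The first principal component held 51.9% of the variance of the 36 scaled genes, 48.4% in the liver channel alone and 45.2% in the reference channel. In the reference channel 24.4% of member pairs exceeded 0.5, against 15.2% of all pairs, and 44.4% of member pairs were below 0. In the liver channel alone the median r was 0.46, and in the reference channel 0.10. It was 0.50 with slide means also removed and 0.41 without male controls 31 and 33.

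The closest pair was Gbp3 and Irgm1, both interferon-induced GTPases whose upstream stretches are shown above, with r = 0.95. The next pairs joined different roles. Bst2 and Oas1a had r = 0.94, and Irf7 and Isg15 had r = 0.93. Dhx58 reached 0.92 with Irf9 and with Oasl2, and Isg15 reached 0.92 with Rsad2 and with Irf9. Oas1a (r = 0.91), Irgm1 (0.90), Gbp3 (0.90), Dhx58 (0.89) and Irf9 (0.89) were nearest to the mean of the other members. Within roles the median r was 0.83 for antigen processing, 0.70 for the oligoadenylate synthetases, 0.62 for the GTPases, 0.59 for the RNA sensors, 0.49 for the effectors and 0.25 for the transcription factors. The effectors had a median r of 0.62 with the oligoadenylate synthetases.

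**Figure D4:**
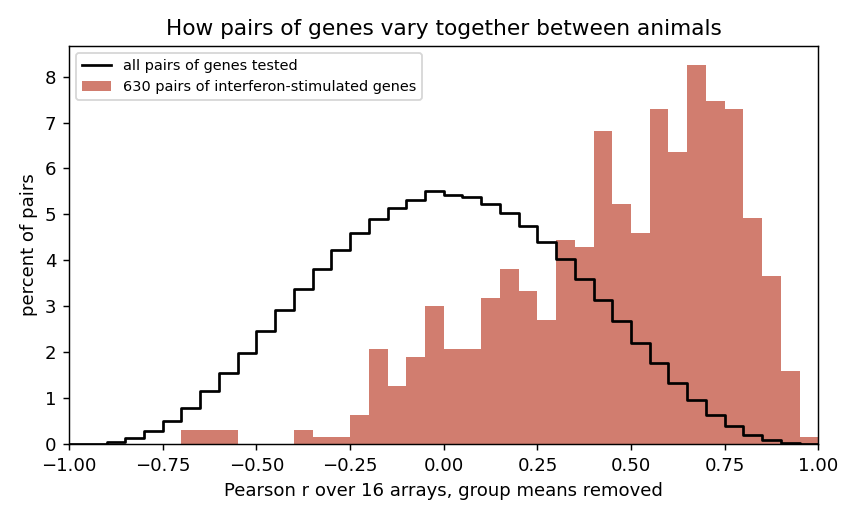
Distribution of Pearson r (group means removed, 16 arrays) over the 630 pairs of interferon-stimulated genes (bars) and over all pairs of genes tested (line), in percent of pairs per bin of 0.05. The member pairs have their median at 0.52 and all pairs at 0.012.

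Outside the list, the genes closest to the mean of the members among 15630 genes above background on all arrays included Phf11a (r = 0.90), Fbxo39 (0.89), Gvin1 (0.88), Oas1f (0.87), LOC240921 (0.85), Sp100 (0.85), Sp110 (0.84), Ifi204 (0.84) and the unnamed transcript TC1453818 (0.83). Gvin1, Sp100 and Ifi204 were in the wider list of pathway genes.

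Isg20, an RNA exonuclease, went its own way. Its r with the mean of the other members was 0.18, and with Mx2, Iigp1, Ddx58 and Irf1 it was negative (-0.69 to -0.62). The 2 probes of Isg20 on chromosome 7 correlated with r = 1.00, so the pattern did not rest on 1 probe. Isg20 was singled out after its values were seen. Its log2 ratio was 1.03, 0.29 and 0.73 in female controls 25, 35 and 40, and 0.78, 0.37, 0.71, 0.67 and 1.08 in female UV-Titan 2, 8, 10, 16 and 21. It was 0.65, 1.05, 1.31 and 0.67 in male controls 31, 33, 41 and 43, and 0.79, 1.33, 1.25 and 1.48 in male UV-Titan 3, 4, 5 and 17. Males averaged 1.07 ± 0.33 (SD, n = 8) and females 0.71 ± 0.28 (SD, n = 8), and exposure differences were 0.04 ± 0.20 log2 (SE) in females and 0.29 ± 0.19 in males.

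In the liver channel Isg20 followed genes of red cell precursors. Across the 16 arrays, with group means removed, its r with the mean of 7 erythroid genes (among them Hba-a1, Gata1, Ermap, Alas2, Slc4a1 and Klf1, while Hbb-b1 was not tested) was 0.98, the highest of 432 pairings of a member with a marker list. The r was 0.97 without removal of group means, 0.95 without the 2 arrays farthest from the median, 0.95 among females and 0.99 among males. Each of the 7 genes reached at least 0.81. Male control 41 was highest in both, at 0.61 for Isg20 and 0.53 for the erythroid mean (log2 minus the mean over arrays), and female UV-Titan 8 lowest in both, at -0.59 and -0.48. Rsad2 (r = 0.79), Oas3 (0.73) and Isg15 (0.67) also followed the erythroid mean, and the mean of all 36 members less so (0.29). With group means kept and the 2 farthest arrays left out, Rsad2, Oas3 and Isg15 had r of 0.74, 0.54 and 0.59. Among females these were 0.74, 0.48 and 0.51, and among males 0.84, 0.81 and 0.89.

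The ratio did not show this for the erythroid mean. By log2 red over green, Isg20 and the erythroid mean had r = -0.04, while the Isg20 ratio against the erythroid red signal had r = 0.96. Rsad2, Oas3 and Isg15 had r of 0.14, -0.05 and 0.07 with the erythroid mean by log2 ratio. The erythroid genes ran at a mean log2 ratio of 2.36 to 4.76, with far less signal in the reference than in liver. Their mean in the reference channel also moved, from -0.55 in female UV-Titan 8 to 0.64 in male UV-Titan 17. In the liver channel these arrays had -0.48 and 0.44. The part of this movement in the liver-channel pattern was not tested. The erythroid mean of the liver channel averaged 0.13 ± 0.33 over the 8 males and -0.13 ± 0.26 over the 8 females (SD), beside the sex values of Isg20 above. The part of red cell precursors in the level of Isg20 was not tested.

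**Figure D5:**
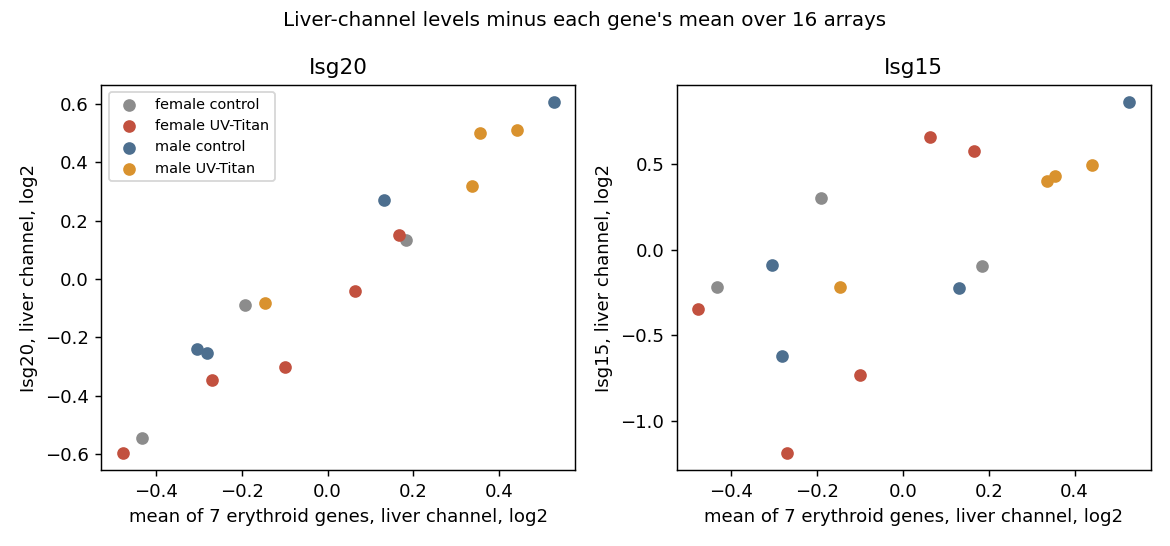
Liver-channel level of Isg20 (left) and Isg15 (right) against the mean of 7 erythroid genes on the same array, all in log2 minus each gene's mean over 16 arrays, coloured by group. Isg20 lies along a line (r = 0.97) and Isg15 scatters around it (r = 0.70).

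The mean of the members was also set beside the other marker lists. The mean of the members in the liver channel had r = 0.38 with T and NK lymphocyte genes, 0.42 with neutrophil genes, 0.36 with megakaryocyte genes, 0.36 with endothelial genes, 0.35 with conventional dendritic cell genes, 0.32 with B lymphocyte genes, 0.26 with plasmacytoid dendritic cell genes, -0.14 with hepatocyte genes and -0.0062 with Kupffer cell genes. With exocrine pancreas genes it had r = -0.66. Once male controls 31 and 33 were left out, r was -0.095 with pancreas genes, 0.64 with T and NK lymphocyte genes, 0.49 with neutrophil genes and 0.20 with erythroid genes. By log2 ratio r was 0.29 with T and NK lymphocyte genes, 0.29 with conventional dendritic cell genes and -0.69 with pancreas genes. The ratio gave 0.0024 with neutrophil genes, 0.095 with megakaryocyte genes and -0.0090 with endothelial genes. Without controls 31 and 33 it gave 0.35 with T and NK lymphocyte genes, 0.18 with neutrophil genes and -0.17 with pancreas genes. The part of cell make-up in the spread of the members was not tested.

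Interferons themselves were hardly measurable. Of 12 listed ligand names, Ifna1 and Ifng passed the filter. Ifnb1, Ifna2, Ifna4, Ifnk, Ifne and Ifnl3 were not above background on enough arrays, and the remaining 4 names matched no probe. Ifng, the type II interferon, had 0.24 ± 0.10 log2 (SE) in males (unadjusted p = 0.0252, adjusted p = 0.949), 0.18 ± 0.12 without male controls 31 and 33, and an r of 0.47 with the mean of the members.

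The wider pathway list of ligands, receptors, kinases, inducers, inhibitors and other induced genes had 75 genes tested, and none passed after adjustment. In females 55 were higher and 20 lower with UV-Titan, with a median of 0.062 log2 and 4 genes below an unadjusted 0.05, where 58.8% of all genes were higher and 6.75% below 0.05. In males 59 were higher and 16 lower, with a median of 0.072 log2 and 10 genes below 0.05, beside 56.8% and 4.96% of all genes. Leaving out controls 31 and 33, the male counts were 38 higher and 37 lower, with a median of 0.0018 log2 and 3 genes below 0.05, beside 57.7% and 1.91% of all genes. Averaged over sexes 61 were higher, with a median of 0.060 log2 and 12 genes below 0.05, beside 60.7% higher, 7.07% below 0.05 and a median of 0.019 log2 over all genes. By role, the male counts that follow include controls 31 and 33. Both ligands tested were higher in both sexes. Of 6 receptor genes 4 were higher in females and 3 in males, of 9 kinases and transcription factors 7 and 6, of 10 inducers 6 and 9, of 6 inhibitors 6 and 5, and of 42 other induced genes 30 and 34.

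By smallest p, the pathway genes in females were Slfn2, a regulator of lymphocyte quiescence (0.40 ± 0.11 log2, SE, limma adjusted p = 0.487), Irf8, a transcription factor of myeloid cells (0.28 ± 0.09, adjusted p = 0.636), and Ifitm1, a membrane protein that blocks virus entry (0.27 ± 0.10, adjusted p = 0.684). In males they were the chemokine Cxcl9 (0.50 ± 0.16 log2, SE), the kinase Tbk1 (-0.31 ± 0.11) and Ifi27 (0.32 ± 0.12), each with a limma adjusted p of 0.949. They were, without controls 31 and 33, 0.23 ± 0.16, -0.25 ± 0.14 and 0.20 ± 0.14 log2. Irf8 averaged over sexes had 0.23 ± 0.06 log2 (SE, limma adjusted p = 0.324). Irf8 varied little with the members (r of 0.27), Ifitm1 went against them (-0.52), and Slfn2 and Cxcl9 followed moderately (0.57 and 0.48). All 12 marker lists had a higher mean log2 ratio in exposed than in control females. Minus each gene's mean, neutrophil genes averaged -0.37 in female controls and 0.11 in female UV-Titan, and hepatocyte genes -0.42 and 0.11. The part of this in the female differences of the pathway genes was not tested.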

How the data were processed

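The authors deposited spot intensity files, with a red and a green channel, for 16 arrays, extracted with Agilent Feature Extraction per the labels' protocols. A table of log2 ratios was also deposited by the authors, with its normalization not given in the sources used here. Its columns tracked red over green of the raw signals (r of 0.946 to 0.994), which gives scale and direction.

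Mean signals were background-corrected with normexp (offset 50) and loess-normalized within arrays in limma 3.58.1 under R 4.3.3, control and outlier spots left out. Probes well above background in red on 3 or more arrays were kept, and each gene was represented by its brightest probe in red. Names came from RefSeq (GRCm38.p6) by accession for 23082 probes and by synonym for 3073, and Irf9, Irgm1, Dhx58, Gbp3 and Apol9b had older names. One limma model with 4 group means was fitted over 18704 genes, with Benjamini-Hochberg adjustment, two-sided, threshold 0.05. Every p in the text comes from it or, where arrays are said to be left out, from its refit. The SD between animals is pooled within groups. Alternatives covered background correction, scaling, channel, filter, probe choice, slide and scan-day blocks, array weights and left-out arrays. The fit was tested on simulated data.

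The members and lists were chosen with earlier results of these data known. Genes named were those with the widest spread (6), the brightest of each role, the 3 smallest p per direction and comparison, and the 10 closest non-members; results for some genes are not reported here. Isg20, Igtp, Dhx58, Irf9, Stat2 and the closest pairs were named after their values were seen. The number of arrays limits the precision. Columns of no sample here numbered 0.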

Additional observations from a re-analysis of the deposited data

Results flagged for a closer look

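Among 63 sets of 4 or 5 animals of a group (20 named genes and their mean, in 3 groups), 1 held an animal apart by Dixon's test, where chance marks about 1 in 20. Ifi44 had a log2 ratio of -2.28 in female UV-Titan replicate 16 and -1.74 to -1.54 in the other 4 animals, so that the gap made up 0.72 of the range. That animal had the lowest mean of all 36 members.

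An interaction term in limma compared the exposure effect between females and males, and 2 of 36 members fell below an unadjusted p of 0.05, beside 4.31% of all genes. The female minus male effect was -0.36 ± 0.14 log2 (SE, unadjusted p = 0.0171) for Apol9b and -0.33 ± 0.15 log2 (SE, unadjusted p = 0.0446) for Oas3. Neither passed after adjustment over all genes (adjusted p = 0.979 for both). Without male controls 31 and 33 the values were -0.20 ± 0.12 and -0.18 ± 0.15 log2. All 4 exposed males were above all 4 control males for Apol9b and the groups overlapped for Oas3.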

How the results depend on the processing

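No member was called under any of the 29 alternative fits. Over the whole array, exposure calls lay between 0 and 11. For females there was 1 call with slide as a block, 1 with scan day as a block and 6 with array weights; for males 1 with Agilent processed signals; averaged over sexes 1 with slide, 10 with scan day and 6 with array weights. Leaving out 1 array gave 0 to 1 calls in females (1 without female UV-Titan 21 or male control 43), 0 in males, 0 to 11 averaged over sexes (11 without male control 43, 3 without female control 35, 1 without female UV-Titan 16 or 21), 0 for the female minus male effect and 8 to 9 between sexes, where probes above background on all 16 arrays gave 3 in place of 9.

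The scaling of arrays moved the members with all genes. In females their median was 0.22 log2 with median-centred red (0.14 over all genes) and 0.36 with median centring in place of loess (0.27 over all genes). The SD between animals of their mean was 0.31 and 0.41 log2 under these, and the median r 0.85 under median centring. The male median was -0.081 under median centring, beside -0.089 over all genes. The female median was below 0 with processed signals, quantile-normalized red, the deposited table, slide as a block and array weights. Leaving out 1 array gave medians of -0.071 (without control 35) to 0.064 (without UV-Titan 16) in females, 0.0022 (without control 31) to 0.17 (without control 43) in males and -0.011 to 0.062 averaged over sexes (the same 2 male controls), an SD of 0.16 to 0.18 and a median r of 0.46 to 0.57. Without male controls 31 and 33, chosen after seeing the data, the male median was -0.11. The Apol9b male difference lay between 0.25 and 0.48 log2 over all settings (adjusted p 0.483 to 1.00), and its groups overlapped in median-centred red.

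No paired analysis was possible because the groups share no replicate number. The labels give no litter or age, and probe positions are in the old build mm7.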
